A study of Solanum lycopersicum with 12 samples.

Results

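Cyclins are the regulatory subunits that switch on cyclin-dependent kinases (CDKs), and the identity of the bound cyclin sets the phase of the cell cycle in which a kinase acts. D-type cyclins respond to growth signals and act at the entry into DNA synthesis, A-type cyclins act from DNA synthesis into mitosis, and B-type cyclins act at the entry into mitosis. CDKB kinases are found in plants and are known for peaks of expression around mitosis. A lateral root starts from divisions of cells inside the primary root, and the young primordium then grows outwards through the endodermis, cortex and epidermis before it emerges.

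The 10 tomato genes followed here were 8 cyclins and the 2 B-type kinases CDKB1 and CDKB2, out of 34027 loci in the deposited count table. They were chosen by locus tag. The A-type cyclins were CycA1 (Solyc11g005090), CycA2 (Solyc06g065680) and CycA3 (Solyc12g088650), and the B-type cyclins were CycB1;1 (Solyc06g073610), CycB1;2 (Solyc10g080950) and CycB2 (Solyc02g082820). The D-type cyclins were CycD3;1 (Solyc02g092980) and CycD3;3 (Solyc04g078470). The kinases were CDKB1 (Solyc10g074720) and CDKB2 (Solyc04g082840). The count table holds tags and no names. RefSeq lists a symbol of the same kind on the chromosome given by the tag for 8 of the 10. It has no symbol matching CycB1;1, and it places its CycA3 on another chromosome than the tag Solyc12g088650. RefSeq holds none of the locus tags, so a shared chromosome does not tie a name to a tag. The names of all 10 therefore rest on the list of tags. All 10 passed the filter on low counts, which left 18357 genes.

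RNA came from microdissected pieces of the primary root of M82 tomato seedlings on agar plates, with 2 libraries in each of 6 groups. All groups carried the DR5::VENUSx3-NLS reporter, a nuclear fluorescent protein under a synthetic auxin-responsive promoter, by which the stage of each lateral root was judged. The control was a piece of the differentiation zone without lateral roots. Stage 1 pieces held a lateral root with a pair of DR5-expressing cells, stage 2 pieces one at its first periclinal division, and stage 3 pieces one passing the endodermis. Stage 4 primordia lay in mid-cortex, and those of stage 5 touched the epidermis but had not emerged. Each piece also held the primary root tissue around the primordium, so a higher level can come from more dividing cells in the piece or from more RNA per cell, and these cannot be told apart here. The labels do not say how many plants went into a library. They also do not say whether the duplicates came from separate sets of plants, so the p-values below measure only the spread between these samples, which may be technical.

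Library totals ran from 1948150 counts (stage 5 replicate 2) to 6196286 (stage 1 replicate 1). Levels are given in CPM, the count relative to the library total after TMM scaling between libraries. The 3′ kit yields about 1 read site per transcript, so CPM were not divided by gene length, and comparisons of levels between genes rest on that property of the kit. The lowest count of any of the 10 genes in any library was 4, and none of the 120 values lay at or under the detection floor of 3 counts. Changes were tested by edgeR's quasi-likelihood test across all 18357 genes, with Benjamini-Hochberg adjustment and a threshold of 0.05. A gene is called when its adjusted p-value lies under that threshold.

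All 10 genes were higher than in the control at stages 3, 4 and 5, and none was called lower in any comparison with the control. Among all tested genes, 3.31%, 0.741%, 3.26%, 13.5% and 21.8% were called lower at stages 1 to 5. At the shares of stages 1 and 2, a count of 0 in 10 called lower is no result about the 10. At stages 3 to 5 that count follows from all 10 being called higher. The shares called higher are given with the counts below. Summed over the 10 genes, the level was 85.6 and 75.9 CPM in the control libraries, 207 and 190 at stage 1, and 187 and 192 at stage 2. It was 373 and 307 at stage 3, 471 and 425 at stage 4, then 595 and 478 at stage 5. Every library with a lateral root thus lay above both controls, stages 1 and 2 were at a like level, and each library of stages 3 to 5 exceeded all earlier ones. This sum over chosen genes was not tested.

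**Figure D1:**
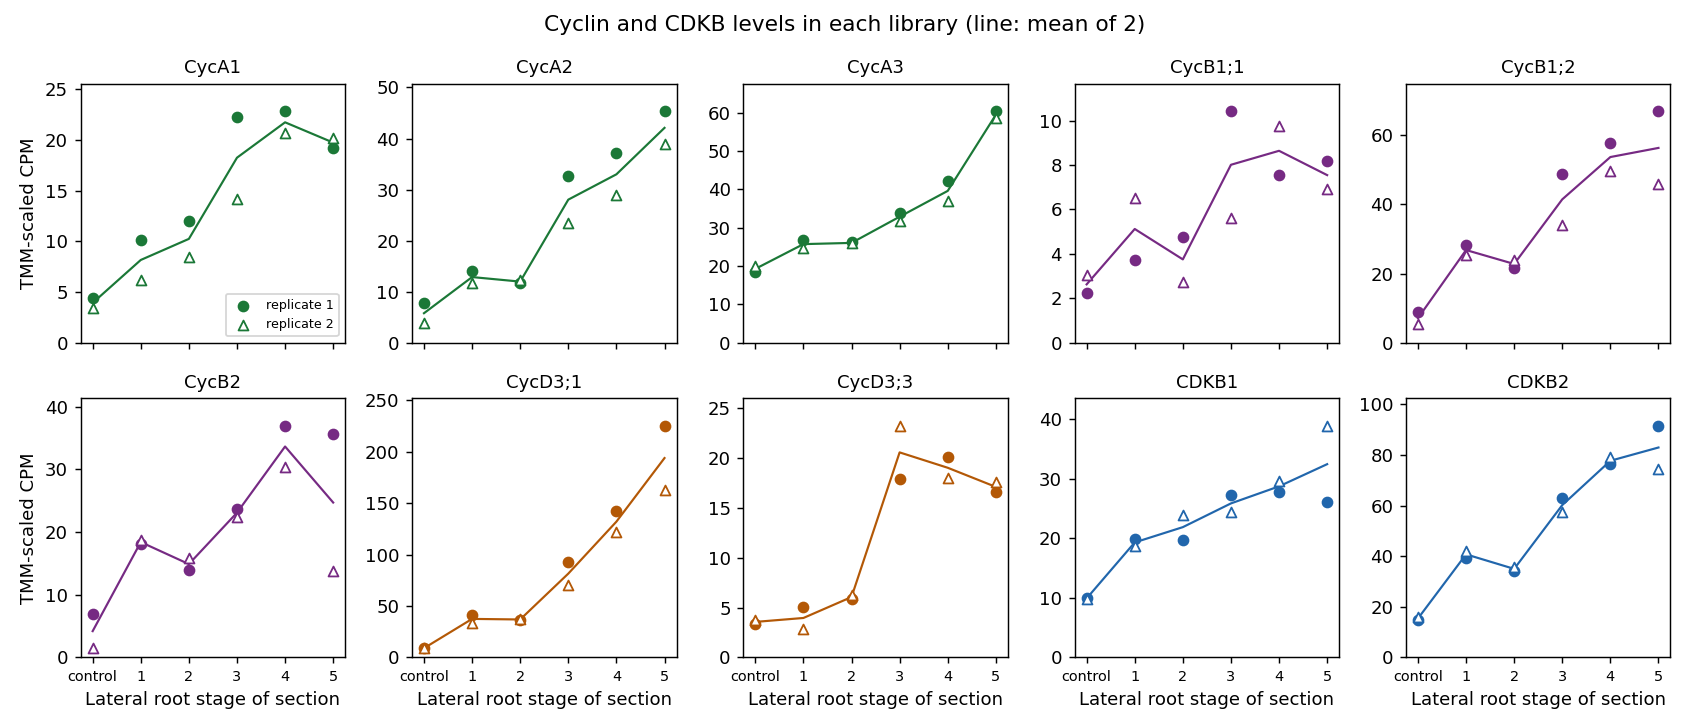
Level of each of the 10 genes (TMM-scaled CPM, linear axis from 0, own scale per panel) in the control and stage 1 to 5 sections. Filled circles are replicate 1, open triangles replicate 2, and the line joins the means of 2 libraries. CycD3;1 climbs from 8.87 and 9.10 CPM in the control to 225 and 163 CPM at stage 5, while CycD3;3 stays at 2.85 to 6.27 CPM through stage 2 and lies at 16.6 CPM or above from stage 3.

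CycD3;1, a D-type cyclin of the class that in Arabidopsis links growth signals to cell division, had the highest level of the 10 from stage 2 onwards. It stood at 8.87 and 9.10 CPM in the control, 41.3 and 33.6 at stage 1, 36.8 and 37.1 at stage 2, 92.5 and 70.6 at stage 3, 143 and 122 at stage 4, then 225 and 163 at stage 5. Libraries of stages 1 and 2 overlapped each other, and otherwise each later group lay above every earlier one. At stage 1 it was 2.06 ± 0.252 (SE) above the control on the log2 scale (edgeR adjusted p-value 0.00065). By stage 5 the change was 4.43 ± 0.26, a 21.6-fold difference (edgeR adjusted p-value 1.11e-06), and 98% of all tested genes had a smaller change in that comparison. Its mean at stage 1 was 19.3% of its mean at stage 5, and its mean at stage 3 was 42%.

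CycD3;3, a second D3 cyclin, had a different course. It was at 3.33 and 3.79 CPM in the control, 5.06 and 2.85 at stage 1, and 5.84 and 6.27 at stage 2. These early levels came from only 10 to 33 counts per library. CycD3;3 then stood at 17.9 and 23.2 at stage 3, 20.03 and 17.97 at stage 4, then 16.6 and 17.6 at stage 5. The stage 1 libraries overlapped the control, whereas all 6 libraries of stages 3 to 5 lay above all 6 earlier ones. At stage 1 its log2 change was 0.165 with a 95% interval from −0.621 to 0.952, which leaves out the 2.06 of CycD3;1 at the same stage. The difference between the 2 genes was not itself tested. Its change at stage 3 was 2.54 ± 0.325 (SE, edgeR adjusted p-value 0.000199), and at stage 5 it was 2.27 ± 0.339 (0.000233). Its highest mean was at stage 3.

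CDKB2, a mitotic kinase, had the second highest level at stages 2 to 5 and the highest mean at stage 1, where its libraries overlapped those of CycD3;1. Its levels were 14.9 and 15.9 CPM in the control, 39.5 and 42.0 at stage 1, 34.3 and 35.7 at stage 2, 62.9 and 57.6 at stage 3, 76.4 and 79.1 at stage 4, then 91.4 and 74.5 at stage 5. Both stage 2 libraries lay below both stage 1 libraries, although the change of −0.22 ± 0.178 (SE) between these stages was not called (edgeR adjusted p-value 1). The duplicates were close up to stage 4, and those of stage 5 enclosed both stage 4 values. The log2 change from the control was 1.41 ± 0.192 at stage 1 and 2.44 ± 0.196 at stage 5 (edgeR adjusted p-values 0.00106 and 3.36e-06).

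CDKB1, the other B-type kinase, had a flatter course. It was at 9.98 and 9.86 CPM in the control, 19.9 and 18.7 at stage 1, 19.8 and 24.0 at stage 2, 27.3 and 24.5 at stage 3, 27.8 and 29.7 at stage 4, then 26.1 and 38.9 at stage 5. The stage 5 duplicates enclosed the stage 4 values. At stage 1 its mean was already 59.5% of its highest mean, against 49.1% for CDKB2. Its log2 change was 0.959 ± 0.251 (SE) at stage 1 and 1.68 ± 0.256 at stage 5 (edgeR adjusted p-values 0.0258 and 0.000261). The stage 1 call was lost when either library of the control or of stage 1 was left out, with adjusted p-values between 0.081 and 0.133.

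The A-type cyclins rose with different steepness. CycA2, of a class active from DNA synthesis to mitosis, stood at 7.76 and 3.79 CPM in the control, 14.0 and 11.7 at stage 1, 11.7 and 12.3 at stage 2, 32.7 and 23.4 at stage 3, 37.1 and 28.9 at stage 4, then 45.3 and 38.9 at stage 5. The early stages formed a plateau, and every library from stage 3 onwards lay above it. Its change of 1.08 ± 0.328 (SE) at stage 1 was only just called (edgeR adjusted p-value 0.0483) and was lost when any of 10 of the 12 libraries was left out, the exceptions being control replicate 1 and stage 5 replicate 2. Its size turned on the control libraries, at 1.73 with the first left out and 0.713 with the second left out. Its log2 change at stage 5 was 2.8 ± 0.324 (SE, edgeR adjusted p-value 3.72e-05). With single libraries left out that change ran from 2.43 to 3.44, the latter without control replicate 1.

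CycA1, an A-type cyclin of the mitotic kind, had 4.43 and 3.41 CPM in the control, 10.1 and 6.19 at stage 1, 12.03 and 8.45 at stage 2, 22.3 and 14.2 at stage 3, 22.8 and 20.7 at stage 4, then 19.2 and 20.2 at stage 5. Stage 1 and 2 libraries lay above both controls, but with changes of 1.02 ± 0.373 (SE) and 1.36 ± 0.372 that were not called (edgeR adjusted p-values 0.0948 and 0.0523). The first call came at stage 3, with a log2 change of 2.18 ± 0.359 and an adjusted p-value of 0.00119.

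CycA3 is the name given to Solyc12g088650, and A3 cyclins are known for expression around DNA synthesis. It had the highest level of the 10 genes in the control, at 18.4 and 20.1 CPM. The values were 26.8 and 24.6 at stage 1, 26.2 and 25.9 at stage 2, 33.9 and 31.8 at stage 3, 42.2 and 36.9 at stage 4, then 60.3 and 58.6 at stage 5. Apart from stages 1 and 2, which overlapped, each later group lay above every earlier one. Its log2 changes were smaller than those of most of the other genes, at 0.422 ± 0.191 (SE, not called) at stage 1, 0.775 ± 0.191 at stage 3 and 1.63 ± 0.193 at stage 5 (edgeR adjusted p-values 0.171, 0.0153 and 4.29e-05). The stage 3 call was lost without control replicate 1 or either stage 3 library (adjusted p-values 0.0587 to 0.108). It was the only one of the 10 with fractional counts, which occur when a read is divided between similar loci, and it had them in 5 of the 12 libraries.

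Of the B-type cyclins, which mark cells entering mitosis, CycB1;2 rose early and far. It was at 8.87 and 5.31 CPM in the control, 28.3 and 25.3 at stage 1, 21.6 and 24.0 at stage 2, 48.9 and 34.0 at stage 3, 57.7 and 49.7 at stage 4, then 66.9 and 45.8 at stage 5. Each stage lay clear of the control, and the stage 5 duplicates enclosed both stage 4 values. The log2 change was 1.87 ± 0.305 (SE) at stage 1, 2.49 ± 0.304 at stage 3 and 2.95 ± 0.308 at stage 5 (edgeR adjusted p-values 0.00255, 0.000139 and 1.78e-05).

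CycB2 had the widest gap between duplicates. The control libraries held 31 and 4 counts, or 6.87 CPM (exact Poisson 95% interval 4.67 to 9.76) and 1.52 CPM (0.413 to 3.88), intervals that cover counting error only and do not overlap. It stood at 18.1 and 18.7 CPM at stage 1, 14.0 and 15.8 at stage 2, 23.7 and 22.4 at stage 3, 36.9 and 30.4 at stage 4, then 35.6 and 13.8 at stage 5. Both stage 5 libraries were above both controls, but the second was lower than every library of stages 1 to 4. The size of its change therefore depended on single libraries: at stage 5 it was 2.47 ± 0.499 (SE, edgeR adjusted p-value 0.00181), 4.03 without control replicate 1 and 1.57 without stage 5 replicate 1. At stage 1 it was 1.99 ± 0.492 (SE, edgeR adjusted p-value 0.0199), 3.56 without control replicate 1 and 1.4 without control replicate 2. Leaving out control replicate 1 also moved stage 3 from 2.31 to 3.89 and stage 4 from 2.86 to 4.42. The lowest changes with 1 library left out were 1.74 at stage 3 and 2.27 at stage 4. The stage 1 call was lost without control replicate 2 or without either stage 1 library, with adjusted p-values of 0.0724 to 0.108.

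CycB1;1 had the lowest level of the 10 in every group except stage 1, where CycD3;3 was lower with overlapping libraries. It was at 2.22 and 3.03 CPM in the control, 3.71 and 6.53 at stage 1, 4.78 and 2.72 at stage 2, 10.4 and 5.61 at stage 3, 7.54 and 9.74 at stage 4, then 8.17 and 6.92 at stage 5. These levels came from 8 to 58 counts per library, the stage 2 libraries overlapped the control, and stages 3 to 5 lay above it. Its changes were called at stages 3, 4 and 5, at 1.63 ± 0.491 (SE), 1.75 ± 0.487 and 1.56 ± 0.513 (edgeR adjusted p-values 0.041, 0.0162 and 0.0259). Each was lost without control replicate 1, with adjusted p-values of up to 0.303, 0.111 and 0.153 when single libraries were left out. The stage 3 call was also lost without control replicate 2, stage 3 replicate 1 or either stage 4 library, the stage 4 call without stage 4 replicate 2, and the stage 5 call without stage 5 replicate 1.

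Against the control section, 6 of the 10 genes were called higher at stage 1, where 9.94% of all tested genes were called higher. These were CycA2, CycB1;2, CycB2, CycD3;1, CDKB1 and CDKB2. The median log2 change of the 10 was 1.05, beside 0.143 over all tested genes, and the range ran from 0.165 (CycD3;3) to 2.06 (CycD3;1). The median of all genes depended on the scaling and was 0.0794 with DESeq2 size factors, a shift small against the changes of the called genes. Both stage 1 libraries exceeded both controls for 9 of the 10 genes, as they did for 37.1% of all tested genes. The count of calls fell to 3 without control replicate 2 and without either stage 1 library, and to 3 when only the 4 libraries compared were fitted. Those fits called 4.42% to 8.48% of all tested genes in either direction. DESeq2 called 4 at stage 1, without CycA2 and CDKB1 (adjusted p-values 0.071 and 0.0598), and 12.6% of all tested genes in either direction. CycB1;2, CycD3;1 and CDKB2 were called whichever library was left out.

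At stage 2, 4 of the 10 were called higher, against 5.25% of all tested genes: CycB1;2, CycD3;1, CDKB1 and CDKB2. The median change was 1.16, beside 0.105 over all genes, and the libraries of 9 genes lay above the control, as did those of 31.6% of all tested genes. CycB2 was not called (1.68 ± 0.502 SE, edgeR adjusted p-value 0.0755), and its value depended on the control libraries, at 3.25 and called without replicate 1 (0.0172) and 1.1 and not called without replicate 2 (0.333). It was also called by DESeq2 (0.0202), which thus called 5 of the 10 at stage 2 and 6.51% of all tested genes in either direction, after thinning to the smallest total (0.0369), without stage 5 replicate 1 or 2 (0.0351 and 0.0338), without a filter on low counts (0.000108) and with the replicate block (0.0478). The count fell to 2 without control replicate 2 or stage 2 replicate 2, and to 1 when only the 4 libraries compared were fitted, fits that called 1.78% to 1.89% of all tested genes in either direction. CDKB1 lost its call without any single library of the control or of stage 2, and CycB1;2 without control replicate 2 or stage 2 replicate 2, with adjusted p-values up to 0.158 and 0.076. CycD3;1 and CDKB2 were called whichever library was left out, although CDKB2 was not in the fit of only the 4 libraries (adjusted p-value 0.0693), with log2 changes of 2.04 ± 0.254 and 1.19 ± 0.194 (edgeR adjusted p-values 0.00151 and 0.00517) with all libraries.

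At stages 3, 4 and 5 all 10 genes were called higher, where the share over all tested genes was 13%, 19.4% and 24.4%. Their libraries did not overlap the control, which held for 32.1%, 34.6% and 34.8% of all tested genes in the higher direction. The median change of the 10 was 2.19, 2.43 and 2.36 at these stages, beside 0.0244, −0.00504 and 0.0215 over all tested genes. An error in the 2 control libraries would move the comparisons of all 5 stages together, because each of them uses those libraries. CycB1;1 and CycA3 lost calls when single libraries were left out, as given above, and the other 8 genes were called at stages 3 to 5 whichever library was left out. DESeq2 in place of edgeR called 8 at stage 3, without CycA3 and CycB1;1 (adjusted p-values 0.0567 and 0.0647), and 16.2% of all tested genes in either direction.

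**Figure D2:**
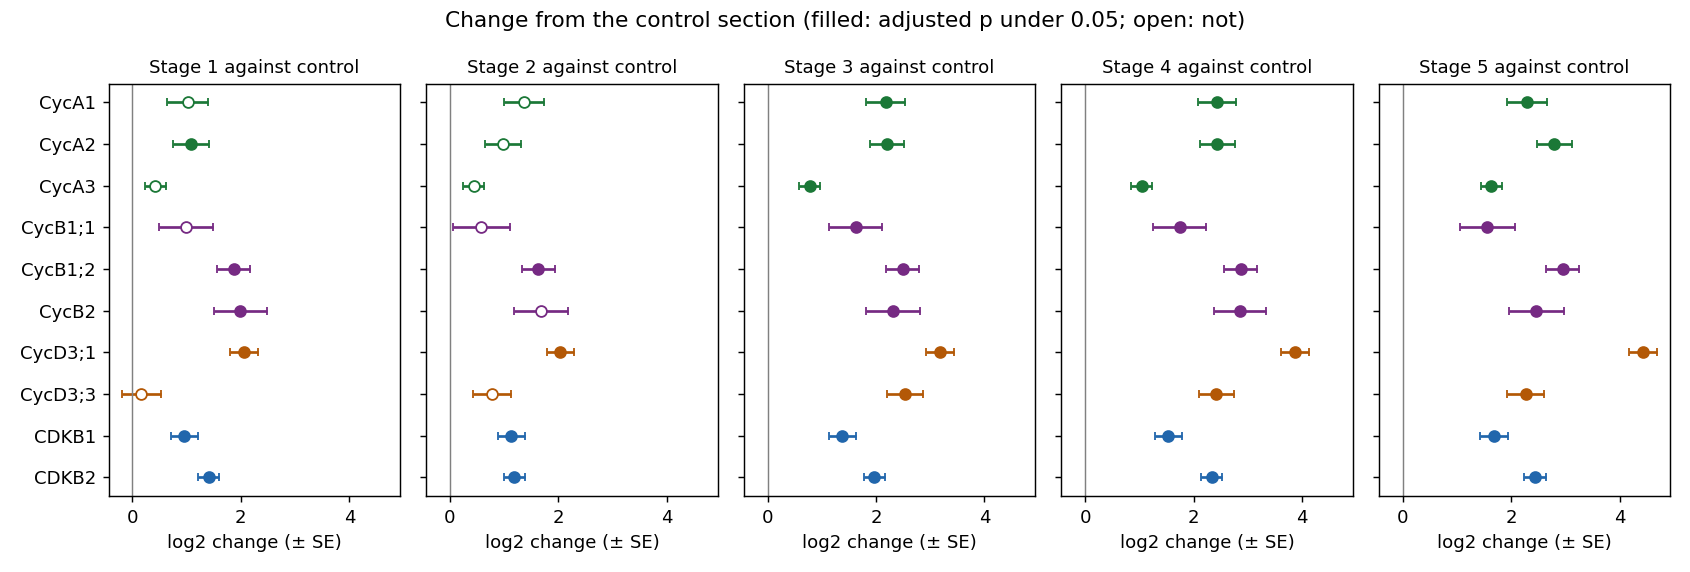
log2 change of each gene from the control section at stages 1 to 5 (points, with bars of 1 SE from edgeR's fit to all 12 libraries). Filled points have an adjusted p-value under 0.05 and open points do not. All points are filled from stage 3 onwards, CycD3;3 lies at 0.165 at stage 1, and CycD3;1 reaches 4.43 at stage 5.

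Successive stages were then compared directly. The control libraries entered these comparisons only through the filter, the scaling and the shared estimate of the spread. From stage 1 to stage 2 none of the 10 genes was called by edgeR, at an unadjusted p-value under 0.05 or by DESeq2, beside 0.278%, 6.72% and 0.817% of all tested genes under these rules, shares at which a count of 0 in 10 is no result about the 10. The changes ran from −0.412 (CycB1;1) to 0.607 (CycD3;3), with a median of −0.0639. CycB1;2, CycB2 and CDKB2 had both stage 2 libraries below both stage 1 libraries, and CycD3;3 had both above. Among all tested genes 22.9% lay below and 17.7% above in this way. The 95% interval of the change was −0.501 to 0.457 for CycD3;1 and −1.4 to 0.577 for CycB1;1.

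From stage 2 to stage 3, when the primordium passes the endodermis, 4 of the 10 genes rose: CycA2, CycD3;1, CycD3;3 and CDKB2. Among all tested genes 2.57% were called higher in this comparison. The largest change was that of CycD3;3, at 1.76 ± 0.293 (SE, edgeR adjusted p-value 0.0144). CycA2 changed by 1.23 ± 0.29 (0.0397), CycD3;1 by 1.14 ± 0.219 (0.0216) and CDKB2 by 0.783 ± 0.178 (0.0342), with edgeR's adjusted p-values in parentheses. Both stage 3 libraries lay above both stage 2 libraries for all 10 genes, as they did for 29.3% of all tested genes. CDKB1 had the smallest change, 0.246 with a 95% interval from −0.254 to 0.746. CycB1;2 changed by 0.866 ± 0.267 (SE) and was not called (edgeR adjusted p-value 0.0934). In edgeR it was called without a filter on low counts (0.0278) and with only the 4 libraries compared (0.0404). These 2 alternatives called 5 of the 10, beside 6.79% and 10.8% of all tested genes in either direction. CycB1;2 was also called without the second libraries of control and stage 5, an alternative chosen after seeing the data, with a change of 0.865. The 4 calls were lost, to 0, when any library of stage 2 or stage 3 was left out, which leaves 1 library in a group. Those fits called between 0% and 0.298% of all tested genes in either direction, so the loss held for the whole comparison. The count was 2 without either stage 1 library, where CycA2 and CDKB2 dropped out, and 2 after thinning to the smallest total. CDKB2 was also not called without either stage 4 library, at adjusted p-values of at least 0.0509.

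From stage 3 to stage 4 none of the 10 was called by edgeR or by DESeq2, where these tests called 0.0872% and 0.915% of all tested genes. At an unadjusted p-value under 0.05 lay 1 of the 10 (CycD3;1), beside 9.91% of all tested genes, nearly the same share. CycD3;1 changed by 0.696 ± 0.212 (SE, edgeR adjusted p-value 0.304). In 6 genes both stage 4 libraries lay above both stage 3 libraries, against 24.1% of all tested genes. In none did both lie below, against 24.3% of all tested genes. From stage 4 to stage 5 edgeR called 0 of the 10 and 0% of all tested genes. DESeq2 also called none of the 10, beside 553 (3.01%) of all tested genes. At that share a count of 0 in 10 is no result about the 10. CycA3 and CycD3;1 had unadjusted p-values under 0.05, as did 17.6% of all tested genes, with changes of 0.588 ± 0.181 (SE) and 0.559 ± 0.211 and adjusted p-values of 0.139 and 0.204 in edgeR's test. CycA1 and CycD3;3 had both stage 5 libraries below both stage 4 libraries, and CycA2, CycA3 and CycD3;1 had both above. The corresponding shares of all tested genes were 24.2% and 21.8%. The highest mean was at stage 5 for 6 genes, at stage 4 for CycA1, CycB1;1 and CycB2, and at stage 3 for CycD3;3.

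**Figure D3:**
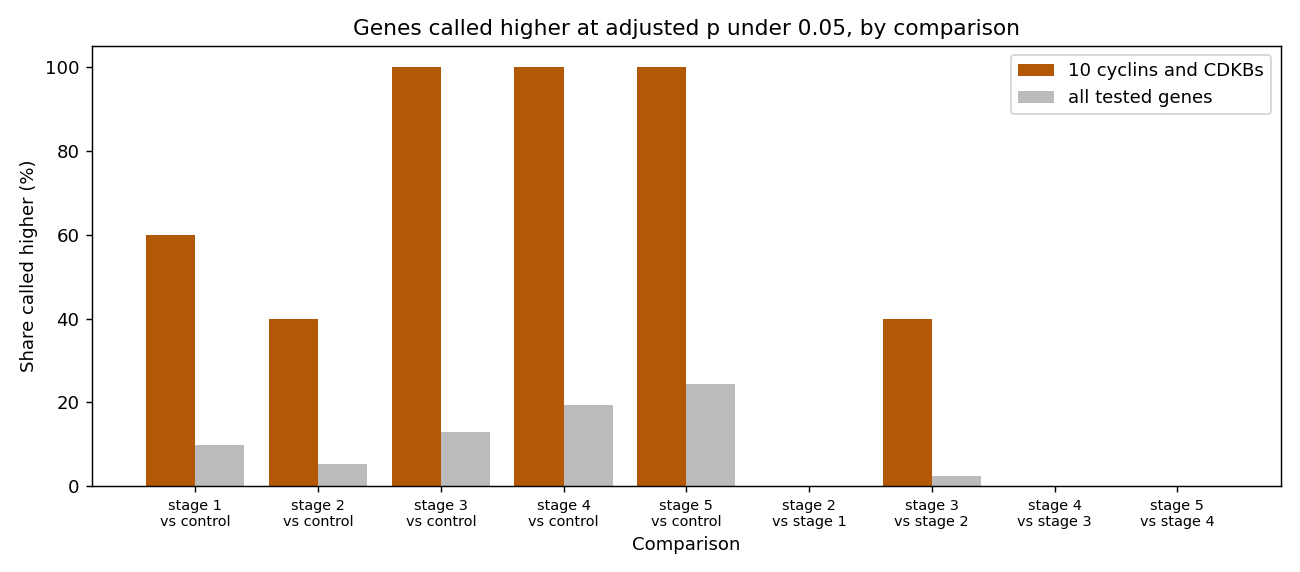
Share (%) of the 10 genes and of the 18357 tested genes called higher at an adjusted p-value under 0.05 in edgeR's test, for each stage against the control and each stage against the one before. The shares of the 10 genes follow the counts 6, 4, 10, 10 and 10 against the control and 0, 4, 0 and 0 for the successive steps, and those of all genes stay at or under 24.4%.

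Primordia passing or past the endodermis (stages 3 to 5) were set against earlier ones (stages 1 and 2) in a contrast that pools 6 and 4 libraries. All 10 genes were called higher, where 22.6% of all tested genes were. CycD3;3 and CycD3;1 had the largest changes, 1.94 ± 0.199 (SE) and 1.78 ± 0.147 (edgeR adjusted p-values 1.53e-05 and 5.31e-06). CDKB1 had the smallest, 0.486 ± 0.15 (0.0187). CycB2 was near the threshold, with a change of 0.714 ± 0.274 and an edgeR adjusted p-value of 0.0489. Its call was lost without any single library of stages 1 to 4 and without stage 5 replicate 1 (adjusted p-values 0.0532 to 0.187, the latter with a change of 0.424 without stage 5 replicate 1). CycB1;1 lost its call without stage 1 replicate 1, stage 2 replicate 2, stage 3 replicate 1, stage 4 replicate 2 or stage 5 replicate 1 (0.0608 to 0.116). CDKB1 lost its call without either stage 1 library, stage 2 replicate 1 or stage 3 replicate 1 (0.0541 to 0.0984).

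Over the whole series, 9 of the 10 genes differed among the 6 groups in edgeR's F test, which called 44.4% of all tested genes. The exception was CycB1;1, with an adjusted p-value of 0.0504, which lay between 0.00744 and 0.141 over 18 alternatives. It was called in 3 of them: without a filter on low counts, without stage 1 replicate 2 and without stage 3 replicate 2. A slope over stage number from 0 to 5, a rank and not a time, was positive and called for all 10, where 25.4% of all tested genes had a called positive slope. It ran from 0.283 ± 0.0508 (SE) log2 units per stage for CDKB1 to 0.778 ± 0.0719 for CycD3;1. These slopes stayed called whichever library was left out, the highest adjusted p-value with all libraries being 0.0118 (edgeR), for CycB2.

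The order of the genes by level changed over the series. In the control CycA3 came first at 19.3 ± 1.2 CPM (SD, n = 2), ahead of CDKB2 at 15.4 ± 0.758 and CDKB1 at 9.92 ± 0.0834, without overlap between these neighbours. CycD3;1 came next at 8.99 ± 0.164, with libraries that overlapped those of CycB1;2. The sequence CycB1;2, CycA2, CycB2, CycA1, CycD3;3 held overlapping neighbours throughout, and CycB1;1 came last. At stage 5 CycD3;1 led at 194 ± 43.9 CPM, ahead of CDKB2 at 83 ± 11.9, without overlap. CycA3 (59.4 ± 1.25) and CycB1;2 (56.4 ± 14.9) overlapped. CycA2, CDKB1, CycB2 and CycA1 formed a run in which each gene overlapped the next. CycD3;1 made up 10.4% and 12% of the summed level of the 10 genes in the control libraries, 20% and 17.7% at stage 1, and 37.8% and 34.1% at stage 5.

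Ratios within a library do not depend on the scaling between libraries. The count of CycD3;1 was 0.597 and 0.571 times that of CDKB2 in the control libraries. The ratio was 1.05 and 0.801 at stage 1, 1.07 and 1.04 at stage 2, 1.47 and 1.23 at stage 3, 1.87 and 1.54 at stage 4, then 2.46 and 2.19 at stage 5. Stages 1 and 2 overlapped, each group from stage 3 onwards lay above the one before, and both controls lay below all others. For CycA3 the ratio to CDKB2 was 1.24 and 1.26 in the control and between 0.467 and 0.786 in the 10 libraries with a lateral root. CDKB1 stood at 0.672 and 0.619 times CDKB2 in the control, 0.504 and 0.446 at stage 1, 0.577 and 0.672 at stage 2, 0.434 and 0.425 at stage 3, 0.364 and 0.376 at stage 4, then 0.285 and 0.521 at stage 5. The stage 2 ratios overlapped the control, those of the other stages lay below it, and the stage 5 duplicates were apart. These ratios were chosen after the levels were seen and are given without a test.

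**Figure D4:**
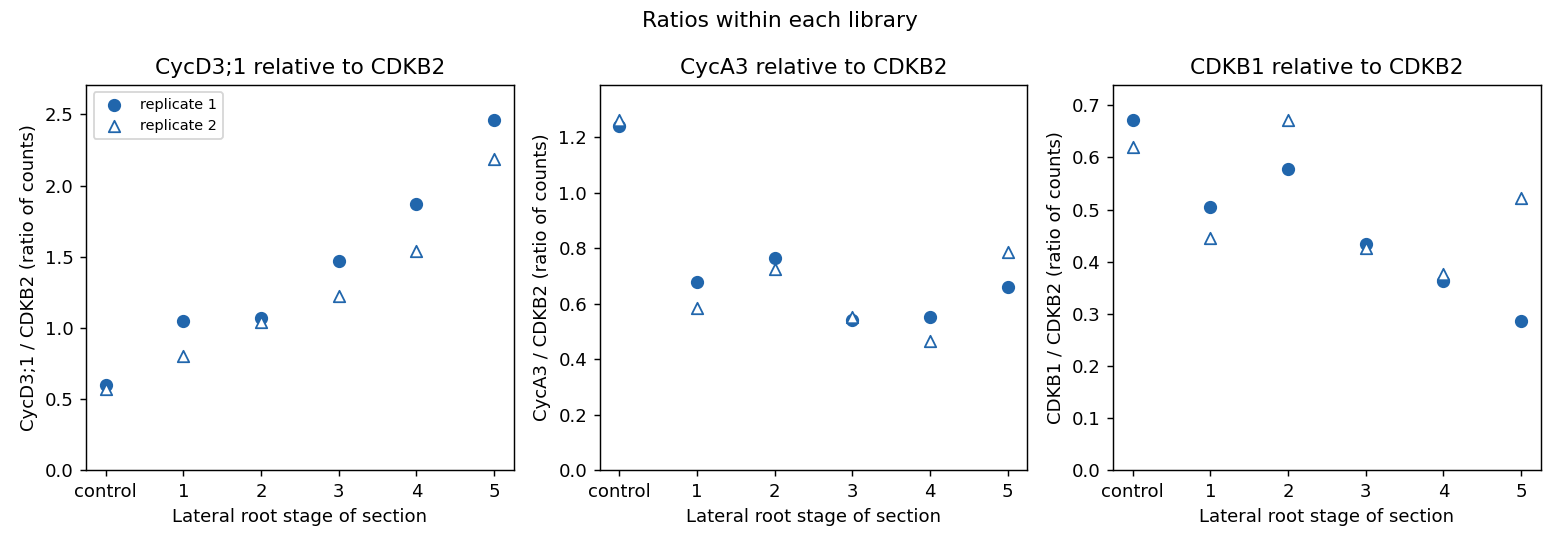
Ratio of the counts of CycD3;1, CycA3 and CDKB1 to that of CDKB2 within each library (linear axes from 0), by stage of the section. Filled circles are replicate 1 and open triangles replicate 2. CycD3;1 goes from 0.597 and 0.571 in the control to 2.46 and 2.19 at stage 5, whereas CycA3 drops from 1.24 and 1.26 in the control to 0.786 or less in the other libraries.

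In 4 of the 6 groups most of the 10 genes were lower in replicate 2 than in replicate 1. Differences are of log2(CPM + 1). They stand without a share over all tested genes, so a trait of the 10 cannot be told from a shift of the whole library. At stage 3, 9 of the 10 genes were lower, with a median log2 difference of −0.267, CycD3;3 being the exception. At stages 1 and 4, 7 were lower, with medians of −0.14 and −0.169. At stage 5, 7 were also lower, with a median of −0.214 and differences from −1.3 (CycB2) to 0.558 (CDKB1). At stage 2, 7 were higher in replicate 2, with a median of 0.0605. In the control 5 were higher and 5 lower.

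Likeness of profile was measured as Pearson's r of log2(CPM + 1) over the 12 libraries, as a description, since the points share libraries, scaling and the order of stages. Over the 45 pairs of the 10 genes r ran from 0.646 (CycA3 with CycB2) to 0.987 (CycD3;1 with CDKB2), with a median of 0.866. Against the mean profile of the other 9, r was highest for CycD3;1 (0.988) and CDKB2 (0.985) and lowest for CycB1;1 (0.83), CycB2 (0.832) and CycD3;3 (0.851). CycB1;1 was the gene with the lowest level in every group except stage 1, CycB2 the one whose control and stage 5 duplicates were far apart, and CycD3;3 the one that stayed low through stage 2.

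Outside the 10 genes, 7349 genes with a mean of at least 20 counts differed among the groups, and 1506 of them (20.5%) had an r of at least 0.9 with the mean profile of the 10. Such a profile was therefore common among genes that changed. The 2 closest were Solyc05g007560 (r = 0.998) and Solyc07g063890 (r = 0.998), whose tags the files do not pair with names. Solyc07g063890 went from 78.3 and 69.0 CPM in the control to 613 and 632 at stage 5, a log2 change of 3.08 ± 0.197 (SE). Solyc05g007560 went from 346 and 287 to 1556 and 1458 CPM, a change of 2.25 ± 0.19. Both genes were picked for their likeness to a rising profile, among genes that differed among the groups. Their rise therefore follows from that choice and is given as a description only.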

How the data were processed

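RNA was sequenced from 12 libraries prepared by 3′ QuantSeq, as the labels' protocols state. The authors deposited estimated counts per locus, 1 column per library. Salmon 1.3.0 and DESeq2 are named in the submitters' processing notes, with no role; the genome build, annotation, strand setting and filters are not given in the sources used here. Values were not whole in 5.64% of cases and column totals differed, so the deposited estimated counts were taken as unnormalised and rounded. Columns were matched to samples by name, and groups and replicate numbers came from the labels.

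Genes were kept with filterByExpr by stage (18357 of 34027), normalised by TMM and fitted in R 4.3.3 with edgeR 4.0.16 (limma 3.58.1), using the quasi-likelihood test, in a model of stage over all 12 libraries (6 residual degrees of freedom), with Benjamini-Hochberg adjustment over all tested genes and a threshold of 0.05. The slope came from a separate model. The SE is the size of the log2 change divided by the square root of F. The fits were tested on simulated counts. DESeq2 1.42.0 was an alternative. Duplicates differed beyond sampling noise (chi-square per degree of freedom 6.2 to 12.4). Intervals on counts cover counting error only; PCR copies cannot be told from separate molecules.

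All 10 genes are named, and of the 10 other genes most like them by the likeness rule 2 are printed. The members, lists and tests were chosen with earlier results of these data known. RefSeq's gene table (SLM_r2.1) holds 0 of the locus tags and no descriptions, so other cell cycle genes, tissue markers, promoters and proteins were not analysed here, and the labelled tissue was not checked against markers.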

Additional observations from a re-analysis of the deposited data

How the results depend on the processing

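Of 2334 recomputed values for single genes, 2218 stayed on their side of the threshold, 100 lost it and 16 gained it. In none did a called change turn its sign. The 2334 include F tests, which have no sign, and changes that were not called. Some changes that were not called did turn, such as that of CycD3;3 at stage 1 (−0.3 to 0.527). Fitting only the 4 libraries compared gave 3 of the 10 genes called at stage 1 and 1 at stage 2, against 6 and 4; this fit has fewer libraries to estimate the spread. Thinning to the smallest total gave 2 called from stage 2 to stage 3, against 4. With single libraries left out, the counts ranged from 3 to 6 at stage 1, 2 to 5 at stage 2 and 0 to 4 from stage 2 to stage 3; those fits assume that a lone library varies like the other groups. Other counts stayed within 1.5 times. The filter of 10 counts in every library kept 7 of the 10 genes (CycA1, CycB1;1 and CycB2 left out), and all 7 were called at stages 3 to 5. Leaving out the second libraries of control and stage 5 together, an alternative chosen after seeing the data, gave 9 called at stage 5. Same-numbered libraries did not deviate together (mean correlation of replicate differences 0.0522, range −0.091 to 0.249 over 15 pairs of groups), so the number was not taken as a pairing; the replicate block gave 6 called at stage 1, 6 at stage 2 (CycA1 and CycB2 added), 10 at each of stages 3 to 5, 4 from stage 2 to stage 3, 0 at the other steps, 10 for late against early stages, 9 among the 6 groups and 10 for the slope. Lists of other cell cycle genes were not run. Depth limits CycB1;1 (8 to 58 counts per library) and the control value of CycB2 (31 and 4 counts). It also limits CycD3;3 up to stage 2 (10 to 33 counts per library). The control values of CycA1 (20 and 9 counts) and CycA2 (35 and 10 counts) are limited in the same way.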
